A study of Mus musculus with 8 samples.

Results

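Mast cells store histamine, proteases and other mediators in cytoplasmic granules and release them by fusing the granules with the plasma membrane or with each other. Fusion is driven by SNARE proteins: a vesicle SNARE on the granule pairs with syntaxin and SNAP proteins on the target membrane, and the complex that forms pulls the membranes together. Sec1/Munc18 (SM) proteins and Munc13 proteins prepare the syntaxins, Rab GTPases and their effectors bring the granule to the membrane, and NSF with its adaptor takes the spent complexes apart.

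The genes described here are 37 components of this machinery, given as a list by name and matched to the Ensembl gene IDs of the count tables by symbol. Of the 37, 36 were measured and 35 passed the filter on low counts, out of 56748 gene IDs in the tables and 14942 genes tested. The gene left out by the filter was Cplx2, with 1 to 12 counts per library, and Vamp7 was not analysed here. All 35 tested genes averaged 1 CPM or more (counts per 1000000 counts of the library, scaled by the TMM method).

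The libraries were made from poly-A RNA of resting bone marrow derived mast cells (BMMCs), which are mast cells grown from bone marrow of C57BL/6 mice of 6 to 8 weeks in medium with IL-3. In 4 Mettl3-RNP libraries (genotype label Mettl3 KO) the cells had been transfected with Cas9 ribonucleoproteins (RNPs) that carry guide RNAs against Mettl3, the methyltransferase that places N6-methyladenosine (m6A) on mRNA. In 4 Pulsed libraries the cells had been mock transfected and had received no Cas9 RNP, so cutting by Cas9 and loss of Mettl3 cannot be told apart. The Mettl3-RNP cells were a mixed population that still held untargeted cells, and in such bulk RNA fewer cells expressing a gene and less of its RNA per cell cannot be told apart. Both groups carry the replicate numbers 1 to 4, and libraries with the same number were compared as pairs.

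The guide sequences that the study lists against mouse Mettl3 are given because they mark the edit that defines the groups. Which of them went into these libraries is not given in the sources used here. Each matched a single place on chromosome 14 of build GRCm39, and other chromosomes were not searched. The capitals mark the PAM read from the genome next to the match.
crRNA_Mettl3_1: cacgggactatcactacggaAGG
crRNA_Mettl3_2-HDR: ggacacgtggagctctatccAGG
crRNA_Mettl3_3-HDR: gatggggtaaccaacaatcgAGG
Guide 1 matched chr14:52537803-52537822 on the plus strand, in coding sequence of exon 2 of the canonical Mettl3 transcript. Guide 2 matched chr14:52542420-52542439 on the minus strand, in coding sequence of exon 1. Guide 3 matched chr14:52542216-52542235 on the plus strand, in intron 1.

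Mettl3 itself was at 12.3, 9.18, 4.88 and 9.21 CPM in Mettl3-RNP replicates 1 to 4 and at 25.9, 24.5, 11.2 and 26.5 CPM in Pulsed replicates 1 to 4. It was lower in 4 of 4 pairs, and the Mettl3-RNP libraries kept 40.9% ± 5.81 (SD, n = 4) of the level of their Pulsed partner. The log2 difference was -1.30 with an SE of 0.109 and an adjusted p of 0.00543 in edgeR's quasi-likelihood test. Exons of Tox4 on the opposite strand cover 2308 of the 6765 exon bases of Mettl3, so without a known strand setting the remaining level could include Tox4 reads.

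The libraries held 32643260 to 45324826 counts. Mast cell markers were high throughout, with 11 of 13 at 1 CPM or more in every library and a summed level of 46533 to 62980 CPM in Mettl3-RNP and 50358 to 68866 CPM in Pulsed libraries. The neutrophil markers S100a8, S100a9, Elane and Camp were at 0 in all libraries. All 7 neutrophil markers summed to at most 0.268 CPM in Mettl3-RNP and 0.199 CPM in Pulsed libraries. Summed markers ran from 7.64 to 36.3 CPM (Mettl3-RNP) and from 9.64 to 16.4 CPM (Pulsed) for macrophages, from 9.23 to 14.8 and from 15.7 to 29.1 CPM for erythroid cells, from 2787 to 3463 and from 2668 to 3084 CPM for basophils, and from 0.342 to 1.66 and from 0.52 to 1.83 CPM for lymphoid cells. Most of the basophil sum came from Itga2b (1597 to 2120 CPM), Cd200r3 (499 to 819 CPM) and Cd34 (272 to 648 CPM). Il18rap was at 22.7 to 64.5 CPM, Mcpt8 at 0.511 to 4.03 CPM and Prss34 at 0.135 to 1.74 CPM over all libraries. Erythroid markers did not overlap between the groups, and their part in the results was not tested. Replicates also differed in 12 immediate early genes, which respond within minutes to stimulation or handling. The replicate 3 libraries were highest in both groups, with sums of 25496 CPM in Mettl3-RNP 3 and 22015 CPM in Pulsed 3. The replicate 4 libraries were lowest, at 771 and 602 CPM (Mettl3-RNP and Pulsed), against 3257 to 6660 CPM in replicates 1 and 2. Counts of called genes, the variance shares and the differences of Stx11, Stxbp3, Rab27a, Sytl1, Sytl2 and Nsf are also given without replicate 3.

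To ask which parts of the machinery resting BMMCs carried, levels were compared per kb of exon length, since longer transcripts collect more counts. In Pulsed libraries the 35 genes spanned 0.778 to 70.3 CPM per kb. Rab38 (70.3 ± 16.9, SD, n = 4), a Rab of lysosome-related organelles, and Rab7 (57.0 ± 7.54), a Rab of late endosomes and lysosomes, led the order, and their ranges overlapped. They were followed by Snap23 (49.99 ± 2.75), Stx4a (44.99 ± 3.02), Stxbp2 (43.9 ± 6.16), Vamp8 (38.7 ± 3.73) and Rab27b (37.7 ± 4.27). These 5 differed from their neighbours in the order by less than their summed SDs. They form a set of a vesicle SNARE, both kinds of target SNARE, an SM protein and a granule Rab.

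At the low end stood Stxbp3 (0.778 ± 0.134 CPM per kb), Syt11 (0.926 ± 0.614) and Sytl1 (1.28 ± 0.0716). Cplx2, a complexin that acts on assembled SNARE complexes, was at 0.0189 ± 0.0104 CPM per kb, which rests on 1 to 5 counts in each Pulsed library. The order depends on the length used: per kb of the canonical transcript Rab7, Vamp8 and Vamp2 came at places 1 to 3 and Rab38 at place 7.

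**Figure D1:**
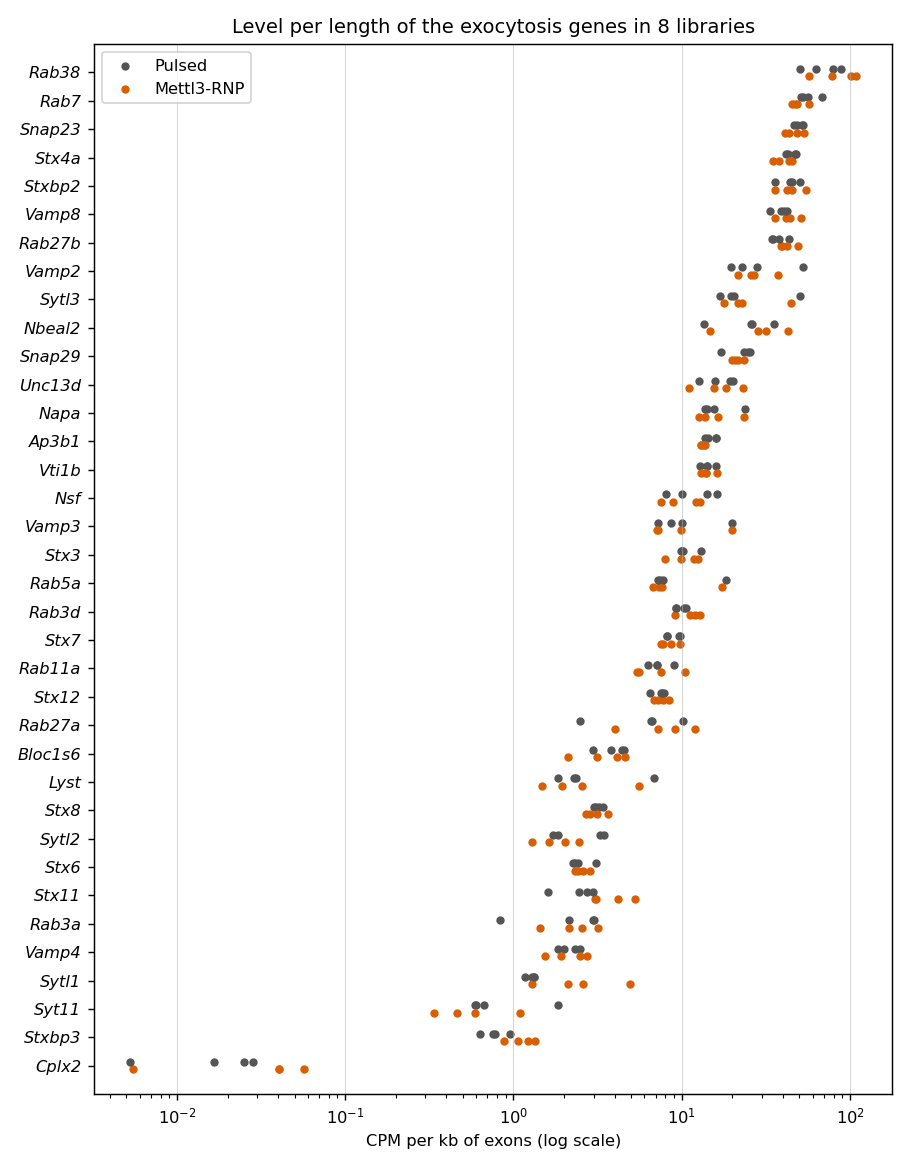
Level of the 36 measured exocytosis genes in CPM per kb of exons (horizontal axis, log scale), with 1 point per library, Pulsed in grey and Mettl3-RNP in orange. The genes are ordered by their Pulsed mean, from Rab38 (70.3) at the top to Cplx2 (0.0189) at the bottom, and the points of both groups overlap for every gene except Stx11.

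Levels were also compared between relatives within gene families. Stxbp2 (Munc18-2) exceeded its relative Stxbp3 (Munc18-3) by 58.2 ± 14.8 fold per kb in Pulsed libraries (SD, n = 4), or 25.6 fold per kb of canonical transcripts. Rab27b exceeded Rab27a by 7.93 ± 6.44 fold, but this mean holds a ratio of 17.5 in Pulsed 3 against 3.73 to 5.30 in the other Pulsed libraries. Among target SNAREs, Stx4a was 4.22 ± 0.447 fold above Stx3 and Snap23 was 2.26 ± 0.401 fold above Snap29. The ratio of Stx4a to Stx3 shrank to 1.30 with canonical lengths.

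Next, the groups were compared. None of the 35 genes reached an adjusted p of 0.05 in edgeR's quasi-likelihood test with the replicate number as a block, while 3.74% of all tested genes did (559 of 14942, 2.35% higher and 1.39% lower). With a fold of at least 1.5 as well, 0 of 35 passed against 2.06% of all tested genes. At an unadjusted p under 0.05 there were 12 genes of 35 (34.3%) against 22.5% of all tested genes. Of these 12, 8 were higher in Mettl3-RNP (Stx11, Stxbp3, Rab27a, Rab27b, Rab3d, Rab38, Sytl1 and Nbeal2), where the share of all tested genes was 11.8%. The other 4 were lower (Rab7, Sytl2, Syt11 and Ap3b1), against 10.7% of all tested genes. The count depends on the tool: the DESeq2 Wald test with the same block put 6 genes at an adjusted p of 0.05 or less (Stx11, Stxbp3, Rab27a, Rab38 and Sytl1 higher, Sytl2 lower), where it called 9.7% of all tested genes (5.94% higher, 3.76% lower), and limma-voom put 1 there (Sytl2), where it called 4.3%. Without replicate 3, edgeR called 1 gene of 35, Sytl2, against 2.57% of all genes tested in that setting.

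The difference had the same sign in 4 of 4 pairs for 12 genes (34.3%), 8 higher and 4 lower, against 31.7% of all tested genes (15.7% higher and 16% lower) and 35.9% of those averaging 1 CPM or more. The exact permutation test over signs of 4 pairs (two-sided) cannot go below a p of 0.125. The fitted differences of the 35 genes had a median of -0.02 on the log2 scale, against -0.0013 for all tested genes, with 14 genes above 0 and 21 below. For 29 of 35 genes (82.9%) the 95% interval of the difference lay within a 1.5-fold change in either direction, as it did for 56.6% of all tested genes and for 70.5% of those averaging 1 CPM or more. The 6 genes whose interval reached past 1.5-fold were Stx11, Stxbp3, Rab27a, Sytl1, Sytl2 and Syt11. For 12 genes (34.3%), among them Stx3, Stxbp2 and Unc13d, the interval was within 1.2-fold, as it was for 13.9% of all tested genes. The 13.9% includes genes averaging under 1 CPM, and the share without them was not computed.

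**Figure D2:**
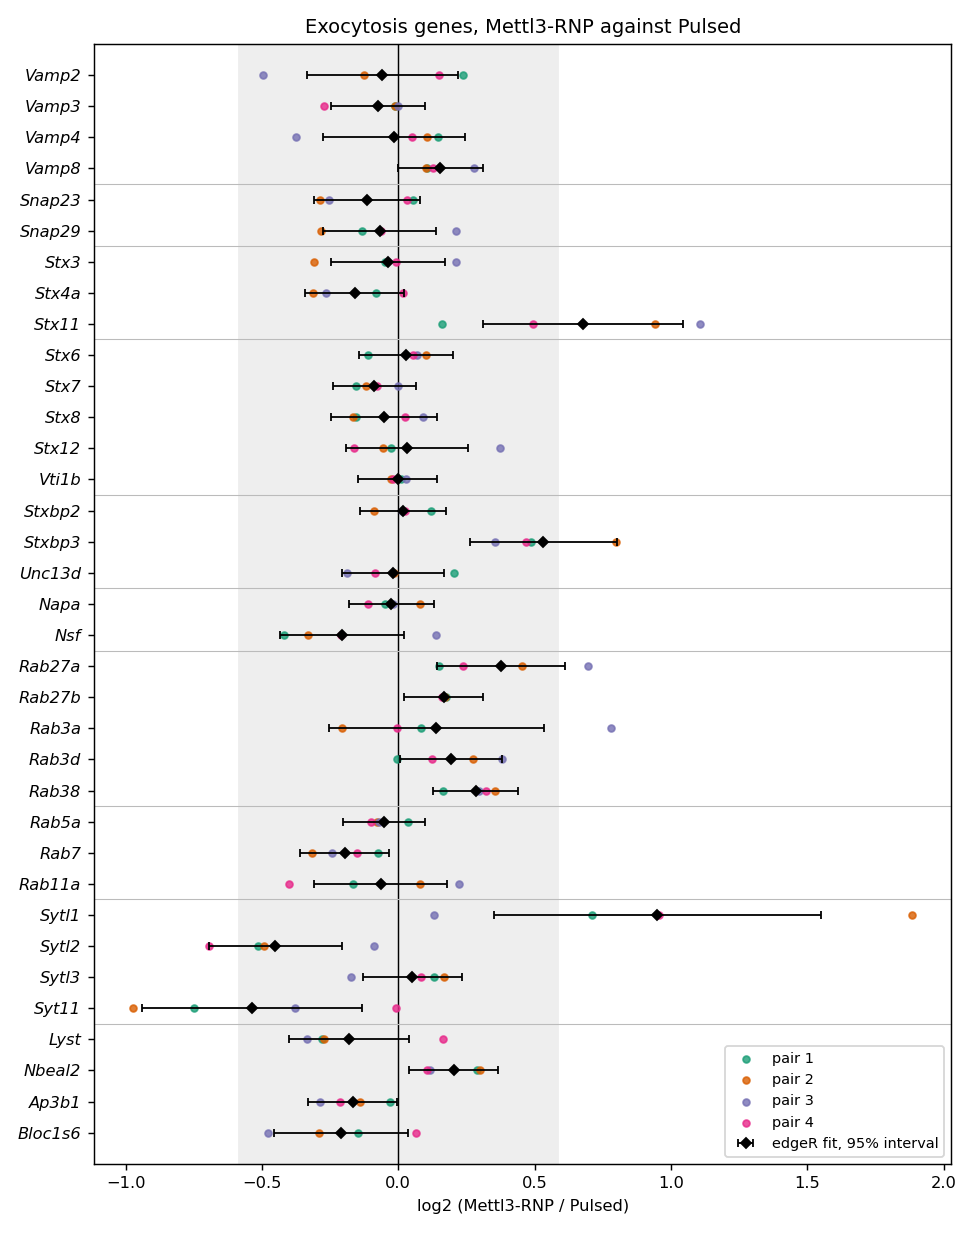
Difference between Mettl3-RNP and Pulsed libraries for the 35 tested genes on the log2 scale, with coloured points for the 4 pairs, black diamonds for the edgeR fit and bars for its 95% interval. Grey shading marks changes of less than 1.5-fold, lines part the functional groups, and fitted values run from -0.54 for Syt11 to 0.95 for Sytl1.

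The vesicle SNAREs were compared in turn. Vamp8 is the vesicle SNARE of mast cell secretory granules (chromosome 6, 72359012 to 72368482, minus strand, GRCm39). It was at 106, 123, 150 and 129 CPM in Mettl3-RNP replicates 1 to 4 and at 98.5, 114, 124 and 118 CPM in the Pulsed replicates. Each Mettl3-RNP library was above its partner although the groups overlapped, and the fitted fold of 1.11 had a 95% interval of 0.998 to 1.24 (adjusted p = 0.23). Vamp2, Vamp3 and Vamp4, which serve other vesicle pools, were fitted at folds of 0.96, 0.95 and 0.99, with adjusted p of 0.624 or more. Vamp2 and Vamp3 were high in replicate 3, at 145 and 205 CPM (Mettl3-RNP and Pulsed) for Vamp2 against 76.0 to 109 CPM elsewhere.

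Of the target SNAREs of the SNAP family, Snap23 (chromosome 2, 120397782 to 120433531, plus strand) is the form that mast cells use for degranulation. Its levels were 352, 313, 297 and 385 CPM in Mettl3-RNP and 340, 383, 354 and 376 CPM in Pulsed replicates 1 to 4. Replicates 1 and 4 were slightly higher and replicates 2 and 3 lower in Mettl3-RNP, and the fold of 0.924 (95% interval 0.807 to 1.06) had an adjusted p of 0.483. Exons of Lrrc57 on the opposite strand cover 2179 bases of its exons, and whether the counting used strand is not stated. Snap29, a SNAP protein of endosomal and autophagic fusion, was fitted at a fold of 0.954 (adjusted p = 0.711).

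Stx4a and Stx3 are syntaxins of the plasma membrane, and Stx11 is a syntaxin of immune cells whose loss in humans causes familial hemophagocytic lymphohistiocytosis. Stx4a (chromosome 7, 127423466 to 127448191, plus strand) was at 110, 92.1, 84.4 and 106 CPM in Mettl3-RNP and at 116, 114, 101 and 104 CPM in Pulsed replicates. It was lower in Mettl3-RNP in 3 of 4 pairs, at a fold of 0.895 (95% interval 0.789 to 1.02, adjusted p = 0.278). Stx3 (chromosome 19, 11752463 to 11796767, minus strand) was at 169, 108, 160 and 134 CPM in Mettl3-RNP and at 175, 133, 138 and 135 CPM in Pulsed replicates, with an adjusted p of 0.847 and groups that overlapped throughout.

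Stx11 (chromosome 10, 12813953 to 12840259, minus strand) had a larger difference. Its levels were 16.01, 16.3, 27.8 and 21.9 CPM in Mettl3-RNP replicates 1 to 4 and 14.3, 8.46, 12.9 and 15.5 CPM in the Pulsed replicates. It was the only gene of the 35 whose groups did not overlap, as did not those of 3.23% of all tested genes, and the gap between the groups was small (15.5 against 16.01 CPM). The fitted fold was 1.60 (95% interval 1.24 to 2.06), with a log2 difference of 0.68 (SE 0.159) and an adjusted p of 0.0594. The pairs differed in size, from 0.16 on the log2 scale in pair 1 to 1.11 in pair 3. When 1 pair was left out, the log2 difference of Stx11 was 0.81 without replicate 1 (adjusted p = 0.0436), 0.58 without replicate 2 (adjusted p = 0.225), 0.53 without replicate 3 (adjusted p = 0.117) and 0.75 without replicate 4 (adjusted p = 0.0408).

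Among the endosomal SNAREs, Stx6, Stx7, Stx8, Stx12 and Vti1b, which act in fusion between endosomes and in traffic from the Golgi, fitted log2 differences ran from -0.09 to 0.03, and no adjusted p was below 0.485. Vti1b was at 74.6 to 93.4 CPM in Mettl3-RNP and 74.1 to 91.5 CPM in Pulsed libraries.

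Among SM and priming factors the abundant genes lay close to 1-fold. Stxbp2 (Munc18-2; chromosome 8, 3680932 to 3694003, plus strand), the SM protein that partners with Stx11 and Stx3, was at 265, 204, 174 and 217 CPM in Mettl3-RNP and at 244, 217, 172 and 214 CPM in Pulsed replicates. The fold was 1.01 with a narrow interval of 0.908 to 1.13 (adjusted p = 0.911). Unc13d (Munc13-4; chromosome 11, 115952915 to 115968805, minus strand), which tethers and primes granules, was at 167, 113, 80.4 and 132 CPM in Mettl3-RNP and at 145, 114, 91.7 and 140 CPM in Pulsed replicates. Its groups overlapped, and the fold was 0.986 (95% interval 0.866 to 1.12, adjusted p = 0.912).

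Stxbp3 (Munc18-3; chromosome 3, 108700489 to 108747919, minus strand), the SM protein that binds Stx4, had the lowest adjusted p of the 35 genes, 0.0512. Its levels were 9.99, 12.7, 11.5 and 8.21 CPM in Mettl3-RNP replicates 1 to 4 and 7.12, 7.26, 8.98 and 5.92 CPM in the Pulsed replicates. Every Mettl3-RNP library was above its partner, with pair differences from 0.36 to 0.80 on the log2 scale, but Mettl3-RNP 4 was below Pulsed 3. The fold was 1.445 (95% interval 1.199 to 1.74). Stxbp3 was also fitted in edgeR with 1 pair left out at a time. The log2 difference was 0.51 without replicate 1 (adjusted p = 0.131) and 0.43 without replicate 2 (adjusted p = 0.233). It was 0.59 without replicate 3 (adjusted p = 0.0684) and 0.56 without replicate 4 (adjusted p = 0.0802). The ratio of Stxbp2 to Stxbp3 per kb was 41.0 ± 12.3 in Mettl3-RNP against 58.2 ± 14.8 in Pulsed libraries (SD, n = 4), and lower in 4 of 4 pairs.

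Cplx2 (chromosome 13, 54519154 to 54531730, plus strand) was near the floor of detection, with 1, 12, 6 and 7 counts in Mettl3-RNP and 5, 1, 5 and 3 counts in Pulsed replicates. No difference between the groups was detectable at this depth. The recycling factors Nsf, the ATPase that disassembles SNARE complexes, and Napa, its adaptor alpha-SNAP, were fitted at folds of 0.866 (adjusted p = 0.262) and 0.983 (adjusted p = 0.868). Without replicate 3 the log2 difference of Nsf was -0.32 (adjusted p = 0.0771) in place of -0.21.

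**Figure D3:**
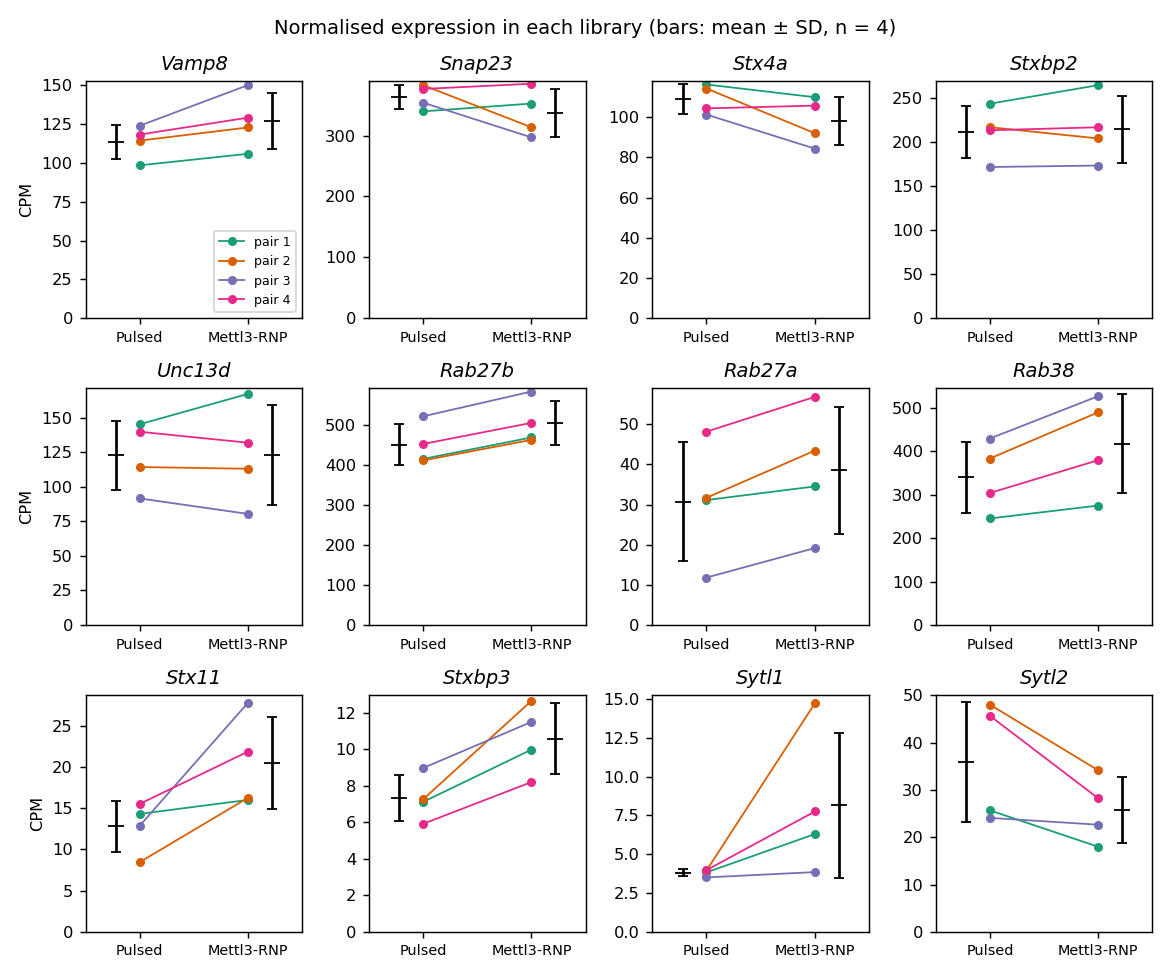
Normalised expression in CPM (vertical axes, from 0) of 12 exocytosis genes in each library, with lines joining the Pulsed and Mettl3-RNP library of a pair and black bars for the mean ± SD of each group (n = 4). Rab27b, Rab27a, Rab38, Stx11, Stxbp3 and Sytl1 were higher and Sytl2 was lower in Mettl3-RNP in 4 of 4 pairs, while lines of Snap23, Stxbp2 and Unc13d run in both directions.

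The secretory Rabs, which mark granules for transport and docking, were all 5 fitted above 1-fold, without an adjusted p of 0.05 or less. Rab27b (chromosome 18, 70112202 to 70274903, minus strand), a granule Rab of mast cells, was at 468, 462, 582 and 504 CPM in Mettl3-RNP and at 414, 411, 521 and 452 CPM in Pulsed replicates 1 to 4. The pair differences were almost alike, and the fold was 1.12 (95% interval 1.01 to 1.24, adjusted p = 0.169). Its relative Rab27a (chromosome 9, 72952124 to 73004911, plus strand) was at 34.5, 43.4, 19.2 and 56.8 CPM in Mettl3-RNP and at 31.1, 31.7, 11.8 and 48.1 CPM in Pulsed replicates. Rab27a was higher in 4 of 4 pairs, at a fold of 1.30 (95% interval 1.10 to 1.53, adjusted p = 0.079), but the spread between replicate numbers was wider than the difference between the groups. Its pair 3 differed most, and without replicate 3 the log2 difference was 0.28 (adjusted p = 0.133) in place of 0.38.

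Rab38 was at 275, 490, 527 and 380 CPM in Mettl3-RNP and at 245, 384, 430 and 304 CPM in Pulsed replicates. It was higher in each pair, at a fold of 1.22 (95% interval 1.09 to 1.36, adjusted p = 0.0628). Rab3d, a granule Rab of secretory cells, was fitted at a fold of 1.14 (adjusted p = 0.213) and higher in 3 of 4 pairs. Rab3a was at 4.35 to 9.64 CPM in Mettl3-RNP and 2.51 to 9.09 CPM in Pulsed libraries, and its fitted direction turned without replicate 3. The endosomal Rabs were all 3 fitted below 1-fold: Rab7 at 0.872 and lower in 4 of 4 pairs (adjusted p = 0.151), Rab5a of early endosomes at 0.964 (adjusted p = 0.692), and Rab11a of recycling endosomes at 0.956 (adjusted p = 0.775). The direction of Rab11a turned without replicate 4.

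The synaptotagmin-like (Sytl) proteins bind Rab27 and link granules to the plasma membrane. They were described together with Syt11, and this group held the highest (Sytl1) and the lowest (Syt11) fitted difference of the 35 genes. Sytl1 (chromosome 4, 132980401 to 132992762, minus strand) was at 6.30, 14.7, 3.85 and 7.75 CPM in Mettl3-RNP replicates 1 to 4 and at 3.83, 3.94, 3.51 and 3.97 CPM in the Pulsed replicates. Pulsed libraries were almost level, and the Mettl3-RNP libraries spread from a value within the Pulsed range (replicate 3) to 14.7 CPM (replicate 2). The fold was 1.93 (95% interval 1.27 to 2.93), with a log2 difference of 0.95 (SE 0.26) and an adjusted p of 0.0824. The size depends on the pairs used, at 0.61 on the log2 scale without replicate 2 (adjusted p = 0.25) and 1.204 without replicate 3 (adjusted p = 0.0505).

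Sytl2 (chromosome 7, 89951453 to 90059927, plus strand) went the other way, at 18.0, 34.1, 22.6 and 28.2 CPM in Mettl3-RNP and 25.7, 48.0, 24.1 and 45.7 CPM in Pulsed replicates. It was lower in 4 of 4 pairs although the groups overlapped, at a fold of 0.732 (95% interval 0.618 to 0.867, adjusted p = 0.0595). Without replicate 3 its log2 difference was -0.57 (adjusted p = 0.0295) in place of -0.45. Sytl3 was fitted at a fold of 1.04 (adjusted p = 0.758). Syt11 (chromosome 3, 88632134 to 88682471, minus strand), an atypical synaptotagmin that does not bind calcium, was at 9.07, 2.78, 3.81 and 4.90 CPM in Mettl3-RNP and at 15.3, 5.51, 4.97 and 4.93 CPM in Pulsed replicates. Pairs 1 to 3 were lower and pair 4 was nearly level, at a fold of 0.689 (95% interval 0.521 to 0.912, adjusted p = 0.122).

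Genes of granule biogenesis and size completed the set. Lyst (chromosome 13, 13764902 to 13953388, plus strand), whose loss gives the giant granules of Chediak-Higashi syndrome, was at 136, 47.3, 35.6 and 61.9 CPM in Mettl3-RNP and at 165, 57.1, 44.8 and 55.2 CPM in Pulsed replicates. Replicate 1 was the highest library of both groups, and the fold of 0.883 had an adjusted p of 0.311. Nbeal2, a relative of Lyst needed for platelet alpha-granules, was higher in 4 of 4 pairs at a fold of 1.15 (adjusted p = 0.139). Ap3b1, a subunit of the AP-3 adaptor that sorts cargo to lysosome-related organelles, was lower in 4 of 4 pairs at a fold of 0.89 (adjusted p = 0.215), and Bloc1s6 was fitted at 0.865 (adjusted p = 0.294).

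The replicate number explained more of the spread than the group did. For the median gene of the 35, 84.0% of the variance of log2 CPM lay between replicate numbers and 4.38% between groups, against 82.6% and 5.43% for all genes averaging 1 CPM or more. Without replicate 3 the shares were 76.6% and 18.0% for the 35 genes, against 68.5% and 12.7%, an alternative added after the data had been seen. The replicate share was over 50% for 28 of 35 genes (80%, against 77.8% of all tested genes). The group share was over 50% for 3 of 35, Stx11, Stxbp3 and Ap3b1 (8.57%, against 5.15%). Replicate 3 was the highest library of both groups for 13 genes (37.1%, against 26.9% of all tested genes). Among these, Rab5a was at 121 and 127 CPM in replicate 3 of Mettl3-RNP and Pulsed against 46.9 to 53.6 CPM elsewhere, and Sytl3 at 250 and 282 CPM against 94.6 to 128 CPM. Vamp3 reached 128 CPM in both replicate 3 libraries against 45.9 to 64.3 CPM in the others.

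Replicate 3 was the lowest library of both groups for 10 genes (28.6%, against 25.8% of all tested genes), among them Rab27a, Unc13d, Nbeal2 and Stxbp2. Nbeal2 was at 143 and 132 CPM in replicate 3 of Mettl3-RNP and Pulsed against 252 to 419 CPM in the other libraries. The early endosomal Rab5a and the granule Rab27a moved in opposite directions in the same libraries. The summed immediate early genes moved with these differences, and their part in them was not tested.

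**Figure D4:**
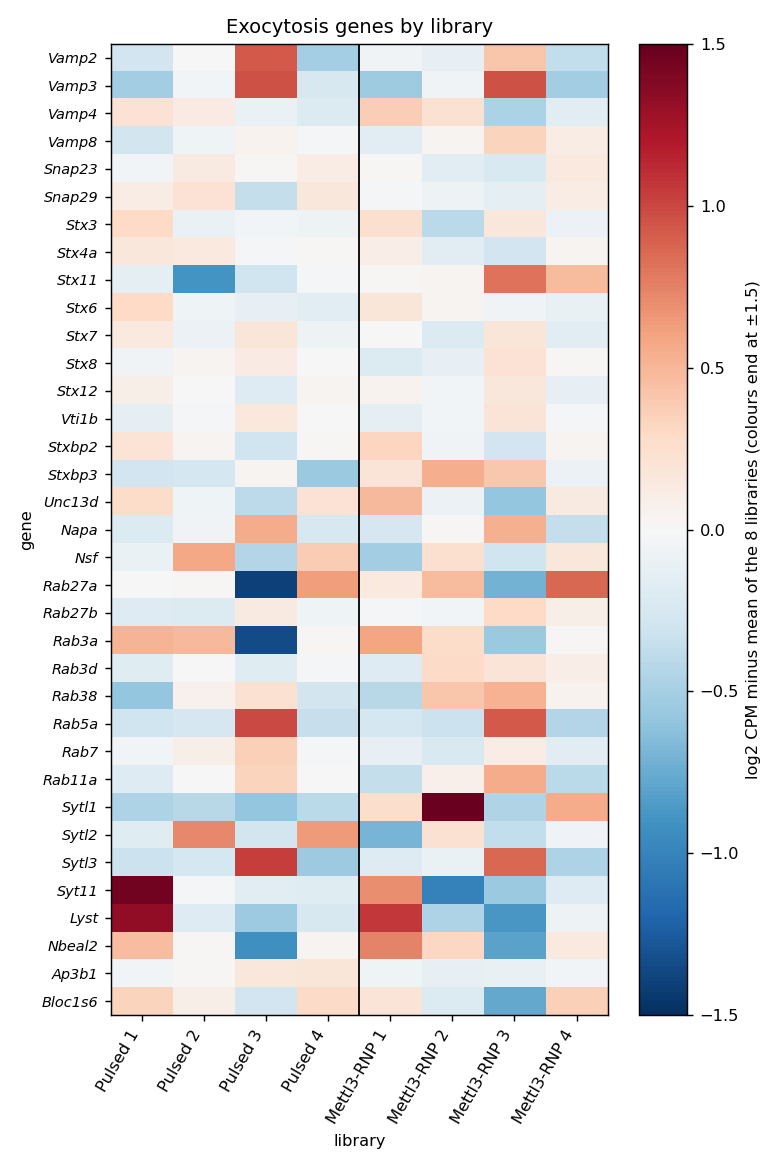
Heat map of the 35 tested exocytosis genes (rows) in the 8 libraries (columns), coloured by log2 CPM minus the mean of the gene over all libraries, red above and blue below, with colours ending at ±1.5. The columns of replicate 3 resemble each other across groups, with Vamp3, Rab5a and Sytl3 red and Rab27a and Nbeal2 blue in both.

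Promoter sequences were examined because several of these genes moved together between replicates. RefSeq promoters (GRCm38.p6, 250 bases before to 50 after the start) were matched for 29 of the 37 genes, and 8 motifs were searched on both strands. The E-box CACGTG was in promoters of 7 of 29 genes (Napa, Nsf, Rab27a, Rab5a, Stx6, Stxbp2 and Vamp4) and of 8.09% of all 27025 genes. Its extended form GTCACGTG, which contains it, was in Napa, Rab5a and Stx6 and in 2.55% of all. The 27025 genes with promoters were not filtered by expression, and enrichment was not tested. The cyclic AMP response element TGACGTCA was in Napa, Rab5a and Stxbp3 and in 2.03% of all. GGGCGG was in 20 of 29 against 38.2%, CCGGAAG in 5 (9.93%), CATGTG in 2 (15.9%), AGATAA in 1 (12.7%), and TGACTCA in 0 (5.95%). A match shows that the letters are present and nothing about binding.

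The 3 promoters with TGACGTCA are shown, with that motif in capitals, as examples of the sequences searched. The motif began 28 bases before the start in Rab5a, 7 before it in Napa and 108 before it in Stxbp3.
Rab5a (chr17:53478984-53479283, GRCm38.p6, plus strand): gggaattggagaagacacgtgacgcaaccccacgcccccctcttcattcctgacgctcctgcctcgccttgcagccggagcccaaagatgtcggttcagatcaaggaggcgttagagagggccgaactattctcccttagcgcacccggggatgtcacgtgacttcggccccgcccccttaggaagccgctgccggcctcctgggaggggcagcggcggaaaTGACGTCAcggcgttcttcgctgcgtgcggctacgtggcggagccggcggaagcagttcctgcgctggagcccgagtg
Napa (chr7:16098330-16098629, GRCm38.p6, plus strand): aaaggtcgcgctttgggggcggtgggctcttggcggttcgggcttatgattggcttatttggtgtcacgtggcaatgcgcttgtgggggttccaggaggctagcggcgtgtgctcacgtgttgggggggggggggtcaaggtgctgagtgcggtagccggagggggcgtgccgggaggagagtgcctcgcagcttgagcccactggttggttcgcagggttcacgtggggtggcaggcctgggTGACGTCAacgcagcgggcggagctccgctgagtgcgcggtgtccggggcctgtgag
Stxbp3 (chr3:108840453-108840752, GRCm38.p6, minus strand): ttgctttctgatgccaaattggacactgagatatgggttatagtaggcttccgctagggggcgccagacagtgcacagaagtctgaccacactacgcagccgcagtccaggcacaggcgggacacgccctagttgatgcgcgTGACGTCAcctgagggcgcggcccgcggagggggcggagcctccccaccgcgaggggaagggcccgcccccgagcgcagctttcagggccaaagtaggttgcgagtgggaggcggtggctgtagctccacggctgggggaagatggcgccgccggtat
Rab5a was 2.44 and 2.40 times as high in replicate 3 as in the mean of the other replicates (Pulsed and Mettl3-RNP), Napa 1.64 times in both, and Stxbp3 1.33 and 1.12 times. Sytl3, whose promoter was searched and lacks TGACGTCA, was 2.65 and 2.14 times as high in replicate 3. These values are a description, and no relation between motif and level was tested. Vamp3 (2.31 and 2.46 times) and Vamp2 (2.25 and 1.51 times) had no matched promoter.

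Since Mettl3 methylates adenosine in sequences such as GGACT, the canonical transcripts were searched for these letters. The 35 genes held a median of 1.019 GGACT per kb, against 1.015 for all tested genes with a canonical transcript (14862), so the set was close to the background in this measure. Vti1b had none, Vamp4 had 2.60 per kb, Vamp8 had 2.44 per kb, Sytl1 had 2.03 per kb, and Stx11 had 0.226 per kb, the lowest above 0. A GGACT says where methylation could occur, and methylation was not measured in these libraries.

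To see how the rest of the pathway compared, 113 further genes were listed in 6 groups, of which 94 were tested. In edgeR's test 5 of the 94 changed at adjusted p within 0.05 (5.32%, against 3.74% of all tested genes), 3 higher and 2 lower in Mettl3-RNP. None of 20 other SNAREs, 13 other SM proteins, priming factors and complexins, 9 exocyst subunits and 7 other synaptotagmins and calcium sensors passed. The 5 genes came from 20 other secretory Rabs, effectors and motors (2) and 25 other granule biogenesis genes (3), and each had the same sign in 4 of 4 pairs.

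Bloc1s4, a subunit of the BLOC-1 complex that builds lysosome-related organelles, rose at a fold of 1.66 (95% interval 1.41 to 1.95, adjusted p = 0.0165). It was at 10.8, 16.3, 31.3 and 15.7 CPM in Mettl3-RNP and at 7.17, 9.24, 20.7 and 8.27 CPM in Pulsed replicates 1 to 4, and its canonical transcript has 1 exon. Bloc1s3, another subunit, rose at a fold of 1.53 (95% interval 1.27 to 1.85, adjusted p = 0.0351), from 11.2 ± 3.09 CPM in Pulsed to 16.8 ± 2.12 CPM in Mettl3-RNP libraries (SD, n = 4). In contrast, Bloc1s6 of the same complex was at a fold of 0.865, and the difference between these subunits was not tested.

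Mlph (melanophilin), an effector that joins Rab27a to myosin Va, rose at a fold of 1.78 (95% interval 1.37 to 2.32, adjusted p = 0.0374). It was at 68.8, 61.1, 10.3 and 103 CPM in Mettl3-RNP and at 50.2, 43.1, 3.51 and 50.03 CPM in Pulsed replicates, so the replicate 3 libraries were far below the others in both groups, as for Rab27a. Rab4a, a Rab of rapid endosomal recycling, fell to a fold of 0.622 (95% interval 0.521 to 0.743, adjusted p = 0.0242), with 11.0, 11.6, 23.2 and 6.73 CPM in Mettl3-RNP and 18.1, 17.3, 45.7 and 9.01 CPM in Pulsed replicates. Lrba, a relative of Lyst and Nbeal2 that acts in the recycling of endosomal cargo, fell to a fold of 0.727 (95% interval 0.632 to 0.837, adjusted p = 0.0341) and did not overlap between the groups, at 21.6 to 25.8 CPM against 28.5 to 39.0 CPM. The fold of Lrba was short of 1.5. These calls depend on the pairs used. Mlph, Bloc1s4 and Rab4a passed without replicate 1, none of the list without replicate 2, Mlph and Bloc1s4 without replicate 3, and Bloc1s4, Bloc1s3 and Rab4a without replicate 4. Lrba lost its call whichever replicate was left out, with adjusted p from 0.0645 to 0.155.

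By exon length, the most abundant genes of the list per kb in Pulsed libraries were Rab44 (206 ± 31.1 CPM per kb, SD, n = 4), a large Rab of immune cell granules, Rab8b (74.7 ± 17.9) and Rab37 (71.6 ± 12.8), a Rab described on mast cell granules. Their adjusted p were 0.152, 0.809 and 0.349. By this length Rab44 stood above each of the 36 measured exocytosis genes. Per kb of canonical transcripts Rab44 was at 277, Rab37 at 174, Stxbp5 at 151, Dtnbp1 (dysbindin, a BLOC-1 subunit) at 109.5 and Rab8b at 80.1 CPM per kb, so the order depends on the length used. Stxbp5 (tomosyn), which competes for target SNAREs, was at 37.1 ± 11.2 CPM per kb of exons and had an adjusted p of 0.219.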

How the data were processed

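Poly-A RNA of 8 BMMC libraries, 4 Mettl3-RNP and 4 Pulsed, was sequenced by the authors. Per the labels, reads were aligned with HISAT2 2.2.1 to GRCm39 and assigned to Ensembl genes with featureCounts 2.0.1. The deposited values are raw counts per gene without normalization, 1 table per library. A batch step named in the methods is not visible in these whole numbers. The strand setting is not given in the sources used here, and exons of 20 of the 35 tested genes overlap a gene on the opposite strand. Names, positions and exons came from GENCODE M39 (GRCm39), which named 98.7% of the IDs, the rest holding at most 0.113% of counts.

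Genes kept by filterByExpr were compared in edgeR 4.0.16 (R 4.3.3) with TMM scaling and the quasi-likelihood test, blocked on replicate number, with Benjamini-Hochberg adjustment over 14942 genes. The threshold was an adjusted p of 0.05 and a fold of 1.5. A prior count of 2 entered log2 CPM, standard errors came from the test statistic, and the scripts were tested on simulated data. Alternatives used DESeq2 1.42.0, limma 3.58.1, other scalings, filters, no block, and each replicate left out.

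The block rests on the series text, which gives 4 mice as the source of both groups, and taking each number for a mouse is inferred. Over 11985 genes averaging 1 CPM or more, partners deviated together from their groups (correlations 0.825, 0.489, 0.879 and 0.765, against at most 0.183 for unmatched numbers). Among all 14942 genes, pair 2 reached only 0.0738, under the top unmatched value (0.249). Libraries of a group differed by more than sampling noise (chi-square per degree of freedom of 52.6 or more). Counts without molecular identifiers are not independent molecules.

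Of 10 core genes of mast cell degranulation, values per library are given for all but Vamp7. They are also given for the 5 largest log2 differences and genes whose highest library exceeded the lowest more than 4 fold. Rab38 was added after its values were seen. Other pathway genes are named at an adjusted p within 0.05 or for their level. The members and gene lists were chosen with earlier results of these data known. Vamp7 was not analysed here.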

Additional observations from a re-analysis of the deposited data

Results flagged for a closer look

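In groups of 4 libraries, 9 of 88 tested groups held a library far from the others by Dixon's criterion, where chance gives about 1 in 20 (4.4 of 88). Of the 9 values, 6 were in replicate 3 and 3 in replicate 1. Rab5a was at 120.6 CPM in Mettl3-RNP 3 (next 53.1) and 126.6 CPM in Pulsed 3 (next 53.6). Sytl3 was at 281.6 CPM in Pulsed 3 (next 114). Among genes outside the 35, Pulsed 3 was also apart for Mlph (3.51 CPM, next 43.1), Bloc1s4 (20.7 CPM, next 9.24) and Mettl3 (11.2 CPM, next 24.5). Pulsed 1 was apart for Lyst (164.6 CPM, next 57.1), Stx3 (174.8 CPM, next 138) and Syt11 (15.3 CPM, next 5.51). In each of these genes the Mettl3-RNP partner of the same number lay on the same side of its group.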

How the results depend on the processing

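Of the 35 genes, 22 kept the sign of their difference in all 13 settings, and those called in any setting were Stx11, Stxbp3 and Sytl2 (6 settings each), Rab38 (3), Sytl1 (2) and Rab27a (1). With the adjusted p held to 0.05, 0 of them passed in the reported fit (3.74% of all genes tested), 1 with DESeq2 size factors (3.85%), 2 with library size alone (3.98%), 6 with the DESeq2 Wald test (9.7%), 1 with limma-voom (4.3%), 3 without edgeR's legacy estimate of the spread (4.96%, chosen after seeing the data, since the planned legacy estimate is the default of this version and equals the reported fit), 4 with every gene of at least 1 count (2.95%), and 4 with at least 10 counts in every library (7.67%). With a fold of 1.5 as well, 2, 1, 2 and 1 genes passed under the DESeq2 Wald test, without legacy, at 1 count and at 10 counts. Over all genes 308 passed both limits as reported, 505 with the DESeq2 Wald test, 579 at 1 count and 559 at a fold of 1.2. Other pathway genes at an adjusted p of 0.05 numbered 10 with DESeq2 in place of 5. Without the replicate block, 0 genes passed over all genes and 0 other pathway genes, and 3 of the 35 had an unadjusted p under 0.05, against 3.87% of all genes. Leaving out each replicate gave 0 to 1 of the 35 genes at either limit (Stx11 without replicate 1 or 4, Sytl2 without replicate 3, with 0.174% to 2.57% of all genes at the adjusted p), a median log2 difference of -0.066 to 0.011, 26 to 331 genes over all genes (lowest without replicate 2) and 0 to 3 other pathway genes. The cause of these moves was not tested.

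Differences near 0 changed sign, none past the threshold in either setting. Without the block Vamp4 was 0.0088, Unc13d 0.0049 and Sytl3 -0.0048. With library size alone Vamp4 was 0.0186, Vti1b 0.031, Unc13d 0.012 and Napa 0.0081. Vamp4 was 0.0049 with limma-voom and 8.9e-05 at 1 count. Vti1b was 0.0058 with DESeq2 size factors and with the DESeq2 Wald test, 0.0141 at 1 count and 0.000225 at 10 counts. Leaving out a replicate gave Vamp2 -0.19 to 0.085, Vamp3 -0.13 to 0.0031, Vamp4 -0.11 to 0.099, Stx3 -0.12 to 0.045, Stx6 -0.0033 to 0.039, Stx12 -0.084 to 0.11, Vti1b -0.041 to 0.015, Stxbp2 -0.053 to 0.046, Unc13d -0.13 to 0.032, Napa -0.066 to 0.014, Rab3a -0.046 to 0.26, Rab11a -0.16 to 0.057 and Sytl3 -0.011 to 0.12.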
